A study of Rattus norvegicus with 18 samples.

Results

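The collagen genes of the rat were followed through dorsal root ganglia, the clusters of sensory neuron cell bodies, glia, vessels and connective tissue that lie beside the spinal cord. They were taken from the deposited count table as the protein-coding rows whose symbol has the form Col, a type number, the letter a and a chain number. This gave 44 genes of the 25678 in the table. Of these, 11 encode fibrillar chains, 8 basement membrane chains (type IV and types XV and XVIII), 6 microfibrillar type VI chains, 9 FACIT chains (collagens that sit on the surface of fibrils), 3 network-forming chains, 1 the anchoring type VII chain, 4 transmembrane chains and 2 other chains.

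The study placed a rat model of neuropathic pain beside Shentong Zhuyu decoction, a traditional herbal preparation, and sequenced messenger RNA in 18 libraries. There were 6 groups of 3 libraries, named in the labels Ctrl (no operation or treatment named), Ctrl_solvent (control given solvent), Sham_solvent and Sham_herb (sham state given solvent or herb), and NPP_solvent and NPP_herb (NPP state given solvent or herb). The labels leave unstated the method of the model, the dose and time of treatment, and the strain, age and sex of the rats. They also leave unstated whether each library is a different rat, and the p-values therefore describe spread among libraries that could be technical.

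Collagens are proteins of the extracellular matrix built from triple helices of chains. Fibrillar collagens such as types I, III and V assemble into the fibers of the epineurium, endoneurium and ganglion capsule. Type IV collagen forms the sheet-like network of the basement membranes that surround Schwann cells, satellite glia and vessels, and type VI collagen forms beaded microfibrils between them. In peripheral nerve, fibroblasts are a main source of fibrillar collagen, and Schwann cells and vessels make type IV and type V chains.

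The libraries held 18170925 to 50289652 counted reads each. Neuron markers summed to between 19630 and 28290 CPM (counts scaled to library size) and Schwann cell markers to between 10050 and 16380 CPM in every library. Fat markers summed to at most 1.34 CPM. Replicate 3 of NPP_solvent stood apart in its collagens: they took 0.393% of its reads, against 0.179% to 0.313% in the other 17 libraries. Comparisons that use that library are also described without it. In bulk tissue, a smaller number of cells of a type cannot be told apart from less RNA per cell.

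Levels were compared between genes in FPKM, which scales fragments to gene length and library size. Type I and type III chains were the most abundant collagen transcripts of the ganglion. Col1a2, which encodes the alpha 2 chain of type I collagen, had a mean of 70.0 ± 15.1 FPKM (SD, n = 18 libraries). Col3a1, the only chain of type III collagen, had 62.8 ± 30.3 FPKM, and Col1a1, the alpha 1 chain of type I, had 51.5 ± 19.8 FPKM. Col1a1 lay lowest of the 3 in FPKM within every library. Without scaling to gene length, the means were 335.8 CPM for Col1a1, 335.1 for Col3a1 and 349.5 for Col1a2. The place of Col1a1 therefore depends on the gene lengths used for scaling. The FPKM ratio of Col1a1 to Col1a2 was 0.526 to 0.981, and that of Col3a1 to Col1a1 was 1.05 to 1.49. Col1a2 and Col3a1 changed places between libraries and their SDs overlapped, so the order of those genes is not firm. Col1a2, Col3a1 and Col1a1 were the 3 members with a mean of at least 50 FPKM. A mean of at least 10 FPKM was reached by 11 members and a mean of at least 1 FPKM by 24, so 20 members lay under 1 FPKM.

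The 11 fibrillar genes made up 59.2% of the summed collagen FPKM on average, between 54.8% and 69.1% of it across libraries. Below types I and III came the type V chains, which join type I fibrils and limit their width. Col5a3, a type V chain that rat Schwann cells secrete, had 26.7 ± 5.85 FPKM, well above Col5a2 (9.08 ± 1.85 FPKM) and Col5a1 (5.44 ± 1.16 FPKM). Fibrillar chains best known from cartilage were lower. Col2a1 had 3.37 FPKM, Col11a1 1.05 FPKM and Col11a2 0.422 FPKM. Of 6 cartilage markers, Cnmd, Hapln1 and Comp had means of 130, 29.4 and 11.9 CPM. Acan and Snorc stayed at or under 1.11 CPM, and Matn1 was at 0 in 15 of the 18 libraries.

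RefSeq gives promoter windows, 250 bases before to 50 after a gene's start, for 35 of the 44 members on build GRCr8, a later build than the mRatBN7.2 used for the counts. Col3a1, Col1a1, Col2a1, Col6a2, Col9a3, Col14a1, Col12a1, Col22a1 and Col25a1 have no entry there. The most abundant member, Col1a2, is shown because its window carries the letters of a TATA box (TATAAA) and of a CCAAT box, read on the other strand as ATTGG, both in capitals. The stretch covers bases 250 to 151 before the annotated start, at chr4:33518307-33518406 on the plus strand. A TATA box usually lies closer to the start of transcription than these letters lie to the annotated start, so the main start may lie upstream of the annotated one.
Col1a2: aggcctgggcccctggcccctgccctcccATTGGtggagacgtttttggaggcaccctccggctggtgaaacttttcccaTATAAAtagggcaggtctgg
Searched on both strands, TATAAA was found in 4 of the 35 members (11.4%, Col1a2, Col10a1, Col13a1 and Col17a1), against 14.2% of all 33469 promoter windows of the same length. Members were counted once per gene and the 33469 windows singly. CCAAT was found in 11 of 35 (31.4%, against 37.5%). The GC box letters GGGCGG were found in 19 of 35 (54.3%, against 33.1%). These matches describe the windows and are not evidence of binding.

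Basement membrane genes made up 15.8% of the summed collagen FPKM (12.3% to 18.5%). Col4a1 and Col4a2, the chains of the type IV network found in nearly every basement membrane, had 25.8 ± 3.67 and 15.4 ± 2.99 FPKM. The ratio of Col4a1 to Col4a2 stayed between 1.53 and 2.23 in every library. The chains of specialised type IV networks, known from the kidney filter, were far lower: 0.513 FPKM for Col4a5, 0.241 for Col4a4, 0.199 for Col4a3 and 0.0639 for Col4a6. Col4a4 rested on 2 to 24 reads and Col4a6 on 5 to 36 reads per library. Col4a3 had more reads than Col4a4 (19 to 119 per library), so their order in FPKM depends on the gene lengths used for scaling. Col15a1, which links basement membranes to nearby fibrils, had 11.3 ± 3.52 FPKM, and Col18a1, the source of endostatin, 6.78 ± 0.842 FPKM.

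Type IV genes lie head to head in pairs, read in opposite directions from a shared stretch. Between the annotated starts lie 76 bases for Col4a2 and Col4a1 on chromosome 16, 412 bases for Col4a4 and Col4a3 on chromosome 9, and 1414 bases for Col4a6 and Col4a5 on the X chromosome (RefSeq, GRCr8). The shared stretch of the abundant pair is shown whole because the levels of its genes moved together across libraries, as described further on. It lies at chr16:84885521-84885596, printed on the plus strand, on which Col4a1 is read. It is 78.9% G and C, and the capitals mark the only GC box match, CCGCCC, the reverse of GGGCGG.
Col4a2/Col4a1: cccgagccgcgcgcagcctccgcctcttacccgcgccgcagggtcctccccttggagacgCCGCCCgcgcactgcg

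The type VI genes made up 5.63% of the summed collagen FPKM. Col6a1 had 11.1 ± 3.24 FPKM and Col6a2 8.17 ± 2.41 FPKM. Col6a3, the long chain that joins them in the classical type VI trimer, had 1.65 ± 0.399 FPKM. The alternative chains were lower still, at 0.567 FPKM for Col6a6, 0.334 for Col6a5 and 0.0267 for Col6a4.

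FACIT genes made up 10.7% of the sum. Col16a1 had 13.6 ± 2.28 FPKM, Col9a3 11.6 ± 1.14 FPKM, Col14a1 8.06 ± 2.28 FPKM and Col9a2 4.23 ± 0.920 FPKM. The chains of type IX collagen, which assemble with each other in cartilage, were very unequal here. Col9a1 had only 0.289 ± 0.224 FPKM, below the lowest library of Col9a2 (2.49 FPKM) in its highest library (0.920 FPKM). Col8a1 and Col8a2, chains of the hexagonal type VIII network, were likewise unequal, at 0.360 ± 0.253 and 6.04 ± 0.785 FPKM. Col10a1, known from growth cartilage, had 0.747 FPKM.

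The remaining classes were led by 1 gene each. Col28a1, a collagen known from peripheral nerve and ganglia, was the sixth most abundant member at 17.7 ± 3.92 FPKM, and Col26a1 had 0.178 FPKM. Among transmembrane collagens, Col23a1 had 6.66 ± 1.00 FPKM, Col25a1 0.866 FPKM and Col13a1 0.424 FPKM. Col7a1, the chain of the anchoring fibrils of skin, had 0.0650 FPKM. Col17a1, a hemidesmosome protein of epithelia, had 0 to 9 reads per library and was the only member under the filter on low counts. The other 43 members were among the 17043 genes tested.

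**Figure D1:**
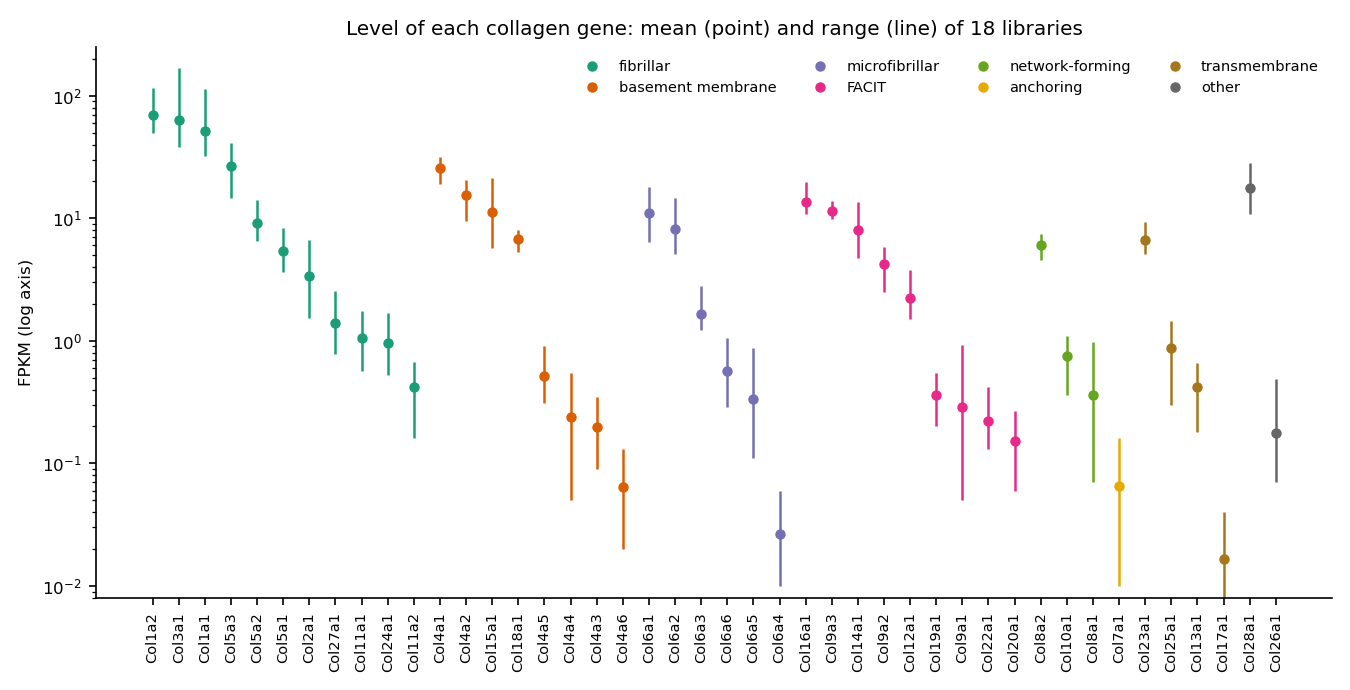
Level of each of the 44 collagen genes in FPKM on a log axis, grouped by class in colour; points are means and lines the range of 18 libraries. Col1a2, Col3a1 and Col1a1 lie highest, at means of 51.5 to 70.0 FPKM, and Col17a1 lowest at 0.0167 FPKM, its line cut at the axis because some libraries had 0 reads.

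Collagens differed in how much they varied between libraries. Per gene, the coefficient of variation of CPM over the 18 libraries was smallest for Col9a3 (10.9%), Col18a1 (11.3%), Col8a2 (12.8%) and Col4a1 (13.6%). It was 21.3% for Col1a2, 38.3% for Col1a1 and 47.9% for Col3a1. Among tested members it was largest for Col9a1 (76.8%), Col8a1 (69.1%) and Col26a1 (61.1%), all under 0.4 FPKM on average. Col9a1 rested on 4 to 153 reads and Col8a1 on 9 to 107 reads per library.

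Much of the spread of the abundant fibrillar genes came from replicate 3 of NPP_solvent. Its Col3a1 level was 887 CPM, against a median of 278 and a highest value of 495 CPM in the other 17 libraries. Its Col1a1 level was 727 CPM, against a median of 299 and a highest value of 542 CPM. Col1a2 reached 575 CPM there, against a median of 325 and a highest value of 423 CPM. This library was above all others for 12 of the 44 members, which also included Col5a1, Col5a2, Col6a3, Col6a5, Col10a1, Col14a1, Col15a1, Col20a1 and Col28a1. It was the lowest for Col8a2 (25.5 CPM) and Col19a1 (2.50 CPM). Types I and III made up 60.0% of its summed collagen FPKM, against 41.1% to 52.4% in the other libraries. Its fibroblast markers summed to 863 CPM, above the 635 and 590 CPM of the other NPP_solvent libraries but inside the 801 to 903 CPM of Sham_solvent. Its markers of meninges, the membranes around the nerve roots, had the lowest sum of all libraries, at 35.5 CPM. Its gene length slope, the change of log2 CPM relative to the gene's mean with log2 gene length, was 0.123. The other 17 libraries had slopes of -0.165 to 0.104. The part of these markers and of that slope in its collagen levels was not tested. Replicate 2 of Ctrl and replicate 1 of NPP_herb were each the highest in 9 members, and replicate 1 of Ctrl_solvent was the lowest in 12.

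**Figure D2:**
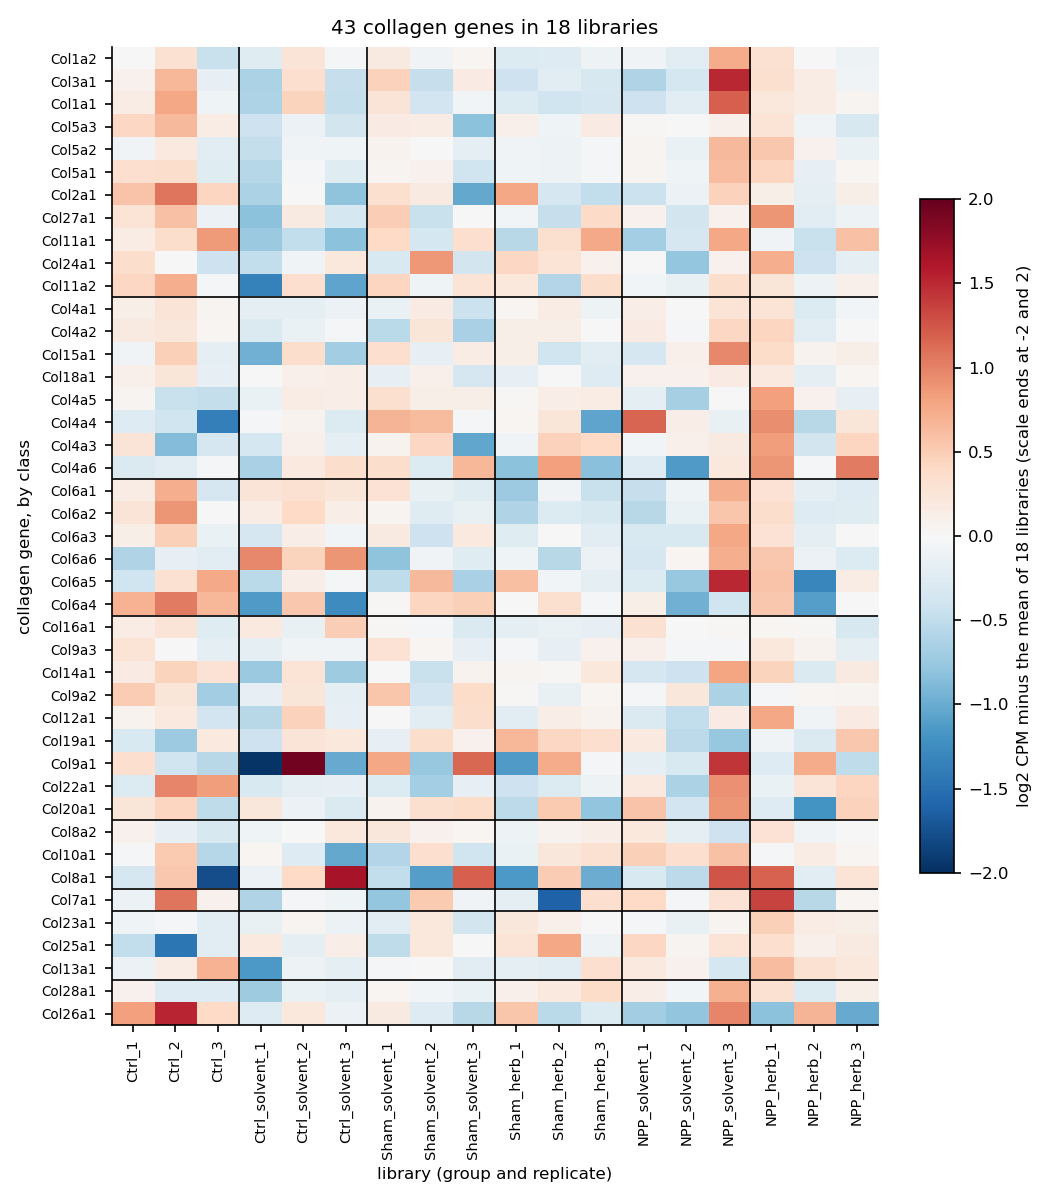
Level of 43 tested collagen genes in the 18 libraries, as log2 CPM minus the gene's mean, with lines between groups and between classes (red higher, blue lower, the scale ends at -2 and 2). NPP_solvent_3 is red for Col1a1, Col3a1, Col6a3 and Col15a1, while replicates 1 and 2 of NPP_solvent are near or below the mean for these genes.

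Chains that share a trimer, a fibril or a head-to-head stretch were compared across the 18 libraries, as correlations of log2 CPM over 12 chosen pairs with p-values from 100000 permutations, 2-sided and adjusted over the 12 pairs. Adjusted p for Pearson's r was 2.4e-05 for the 5 tightest pairs, from a raw p of 1e-05, the smallest these permutations could give. Col1a1 and Col3a1, which share fibrils, gave r = 0.968 and Spearman's rho = 0.955. Col6a1 and Col6a2 gave r = 0.927 and rho = 0.882, and Col4a1 and Col4a2 gave r = 0.912 and rho = 0.961. For Col5a1 and Col5a2 r was 0.862 and rho 0.781, and for Col1a1 and Col1a2 r was 0.848 and rho 0.744. The adjusted p for these rho values ran from 6e-05 to 0.0017.

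These 5 relations did not rest on the most extreme libraries. Without the 2 libraries farthest from the median of the first gene, r was 0.933, 0.886, 0.874, 0.724 and 0.666 in the same order, with adjusted p of 4e-05 to 0.011. Within groups, on deviations from group means permuted inside groups, r was 0.974, 0.948, 0.919, 0.865 and 0.908. Col6a1 and Col6a3 gave r = 0.727 (adjusted p = 0.0011) and rho = 0.604 (adjusted p = 0.019). Without replicate 2 of Ctrl and replicate 3 of NPP_solvent their r was 0.490 (adjusted p = 0.095), so the call depended on those libraries while the sign did not. Within groups, with all 18 libraries, their r was 0.802 (adjusted p = 0.0061) and rho 0.707 (adjusted p = 0.018). Col11a1 and Col11a2, chains of a collagen that seeds fibrils, gave r = 0.528 (adjusted p = 0.037) and rho = 0.567 (adjusted p = 0.028), and without the 2 farthest libraries r = 0.489 (adjusted p = 0.092) and rho = 0.577 (adjusted p = 0.044).

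The remaining 5 pairs did not pass. They were Col4a5 with Col4a6 (r = 0.488, adjusted p = 0.058), Col4a3 with Col4a4 (r = 0.362, adjusted p = 0.19), Col9a1 with Col9a2 (r = 0.262, adjusted p = 0.35), Col9a1 with Col9a3 (r = 0.184, adjusted p = 0.49) and Col8a1 with Col8a2 (r = 0.174, adjusted p = 0.49). Their rho values were 0.352, 0.490, 0.455, 0.302 and 0.115, with adjusted p of 0.18, 0.062, 0.080, 0.24 and 0.65. Each of them holds at least 1 gene with few reads, down to 2 reads in a library for Col4a4, so a relation may not have been detectable at this depth. As a description, the median r over all 903 pairs of tested members was 0.229, and it was 0.523 within the fibrillar class, 0.225 within the basement membrane class and 0.0824 within the FACIT class. All these points share their libraries and depth.

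**Figure D3:**
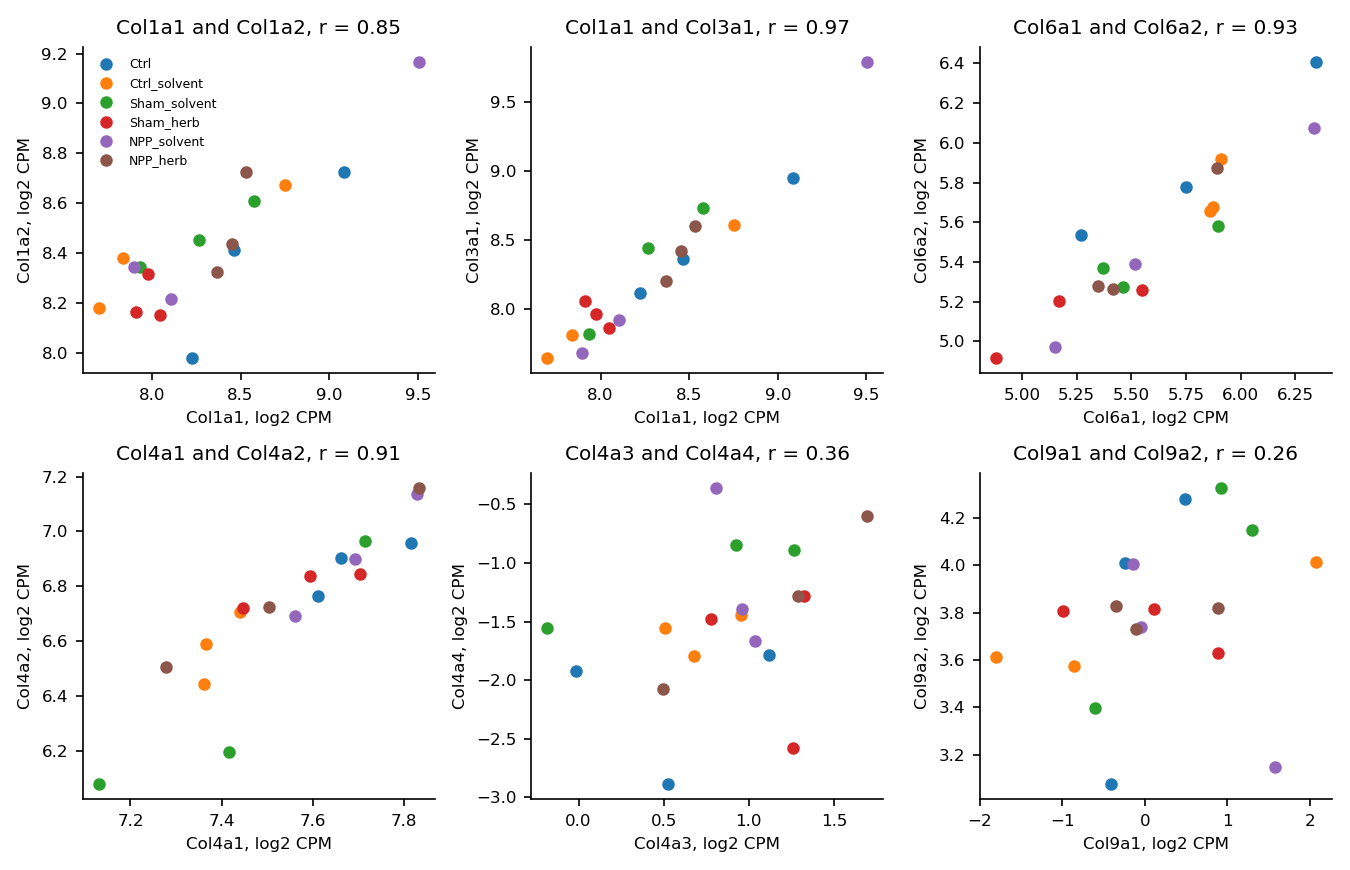
Log2 CPM of 6 pairs of collagen chains, 1 point per library coloured by group, with Pearson's r above each panel. Points fall along a line for Col1a1 with Col3a1 and for Col4a1 with Col4a2, and scatter for Col4a3 with Col4a4 and Col9a1 with Col9a2.

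The groups were then compared with the quasi-likelihood test of edgeR, with p-values adjusted over all 17043 genes and a threshold of 0.05. In each of 9 tests (7 differences between groups, the difference of the herb effects, and any difference among the 6 groups), 0 of 43 collagen genes passed, and 0% of all genes did. With limma voom the count was also 0 in each. With DESeq2 it was 0 in 7 tests, 3 for Ctrl_solvent against Ctrl (where DESeq2 called 465 genes, 2.73% of all) and 1 for any difference (469 genes, 2.76%). At an unadjusted p under 0.05, edgeR gave between 0 and 9 members per test, described in turn. The comparisons share libraries: Sham_solvent, NPP_solvent and Ctrl_solvent each enter several.

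What differs in the pain state without herb was read from NPP_solvent against Sham_solvent. In Col1a1 the Sham_solvent libraries had 382, 245 and 308 CPM and the NPP_solvent libraries 239, 276 and 727 CPM. In Col3a1 they had 426, 226 and 348 CPM against 206, 243 and 887 CPM. The groups overlapped in both genes, and 2 of 3 NPP_solvent libraries lay at the low end. The log2 fold changes were 0.41 ± 0.38 (SE) for Col1a1, 0.42 ± 0.47 for Col3a1 and 0.17 ± 0.22 for Col1a2, with edgeR adjusted p of 0.796, 0.828 and 0.855. With replicate 3 of NPP_solvent left out they were -0.28, -0.57 and -0.19, so the direction turned.

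Of the 43 members, 1 had an unadjusted p under 0.05 (2.33%), against 5.67% of all genes tested. This was Col4a2, with 73.3, 125 and 67.5 CPM in Sham_solvent and 119, 103 and 141 CPM in NPP_solvent. The groups overlapped, and replicates 1 and 3 of Sham_solvent were the low ones. The gene length slopes were -0.165, 0.0772 and -0.0809 in Sham_solvent and 0.00933, -0.0422 and 0.123 in NPP_solvent. The cause of these slopes was not tested. The log2 fold change of Col4a2 was 0.45 ± 0.20 (edgeR adjusted p = 0.755). Alternatives other than leaving out a library, a gene length slope among them, gave 0.21 to 0.52 for Col4a2. Its partner Col4a1 had 171, 210 and 140 CPM against 207, 189 and 228 CPM, a log2 fold change of 0.26 ± 0.14 (edgeR adjusted p = 0.755). Without replicate 3 of NPP_solvent, the only member under an unadjusted p of 0.05 was Col4a5 (2.33%, against 2.46% of all genes). Its Sham_solvent values of 4.59, 4.01 and 3.98 CPM all lay above the NPP_solvent values of 3.18, 2.29 and 3.64 CPM. Col4a5 was the only member whose groups did not overlap in this comparison, which 3.67% of all genes did in that direction.

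The median log2 fold change of the members was 0.16, against 0.01 for all genes, and 30 of 43 were above 0 (all genes 51.3%). Without replicate 3 of NPP_solvent the median was -0.19 and 17 of 43 were above 0. By class, the median with all libraries was 0.14 for fibrillar, 0.18 for basement membrane, 0.15 for microfibrillar and -0.02 for FACIT genes. Without replicate 3 of NPP_solvent these medians were -0.21, 0.14, -0.28 and -0.13, so the fibrillar and microfibrillar ones turned. All 6 markers of meninges had log2 fold changes below 0, with a median of -1.03, and 4 of the 6 had an unadjusted p under 0.05. They summed to 263 to 973 CPM in Sham_solvent and 35.5 to 215 CPM in NPP_solvent, most of it Ptgds. The 8 fibroblast markers were also all below 0, with a median of -0.33 and sums of 801 to 903 against 590 to 863 CPM. The part of either in the collagen values was not tested.

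The decoction in the pain state was read from NPP_herb against NPP_solvent. Col1a1 had 370, 351 and 330 CPM in NPP_herb and Col3a1 388, 344 and 295 CPM. These values lay above replicates 1 and 2 of NPP_solvent and below its replicate 3. The log2 fold changes were -0.24 ± 0.38 for Col1a1 and -0.38 ± 0.47 for Col3a1 (edgeR adjusted p = 1.00 for both). With replicate 3 of NPP_solvent left out they were 0.44 and 0.61.

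Here 2 of 43 members had an unadjusted p under 0.05 (4.65%), against 1.87% of all genes. Col4a5 had 6.56, 3.90 and 3.25 CPM in NPP_herb, where replicate 1 was the high one and the group overlapped NPP_solvent. For Col4a5 the log2 fold change was 0.58 ± 0.26 (edgeR adjusted p = 1.00). Col23a1, a transmembrane collagen, had 42.3, 39.4 and 45.3 CPM in NPP_solvent and 60.4, 48.2 and 47.0 CPM in NPP_herb, without overlap. This is a log2 fold change of 0.29 ± 0.14 (edgeR adjusted p = 1.00). Groups did not overlap for 2 members that were higher in NPP_herb (Col13a1 and Col23a1), against 2.69% of all genes. They did not overlap for 1 that was lower (Col10a1), against 2.61% of all genes. The median over members was -0.05 with 19 of 43 above 0 (all genes 47.7%). Without replicate 3 of NPP_solvent it was 0.29 with 34 of 43 above 0, and the members under an unadjusted p of 0.05 were Col12a1, Col4a5, Col23a1 and Col4a6 (9.30%, against 3.32% of all genes). All 6 meninges markers were above 0 in NPP_herb with all libraries (median 0.94, 2 at an unadjusted p under 0.05), with sums of 221 to 379 against 35.5 to 215 CPM, which did not overlap. All 4 red cell markers were also above 0, with sums of 94.9 to 568 against 14.9 to 112 CPM. The part of either in the collagen values was not tested.

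**Figure D4:**
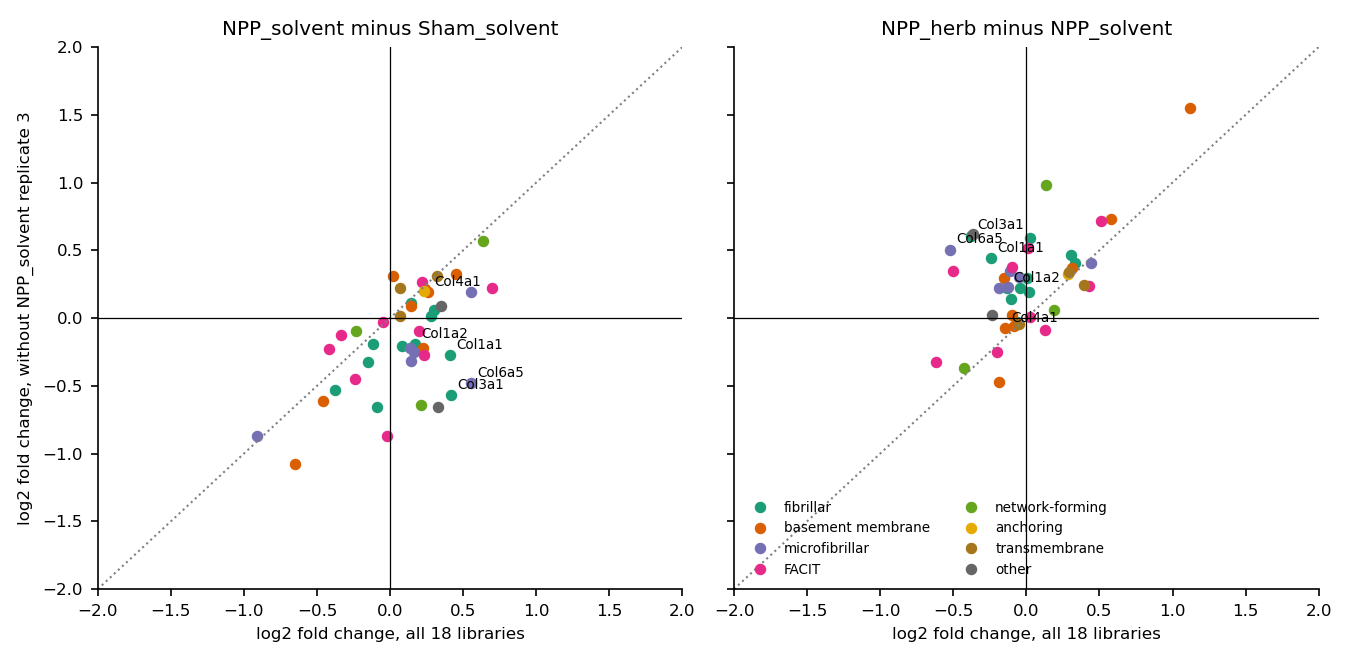
Log2 fold change of each of 43 collagen genes with all 18 libraries (horizontal) and without replicate 3 of NPP_solvent (vertical), coloured by class, with a dotted line of equality. For NPP_solvent minus Sham_solvent 13 genes change sign, among them Col1a1, Col1a2 and Col3a1, and for NPP_herb minus NPP_solvent 17 genes do.

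In the sham state, Sham_herb against Sham_solvent, 0 of 43 members had an unadjusted p under 0.05, against 9.89% of all genes. Col1a2 had 390, 325 and 351 CPM in Sham_solvent and 285, 287 and 319 CPM in Sham_herb. These groups did not overlap, as was also the case for Col6a2 in the same direction (2 of 43, 4.65%, against 6.06% of all genes). The log2 fold change of Col1a2 was -0.26 ± 0.22 (edgeR adjusted p = 0.641). Col28a1 did not overlap in the other direction, with 80.8, 75.7 and 72.2 CPM in Sham_solvent and 84.5, 90.1 and 102 CPM in Sham_herb (1 of 43, 2.33%, against 8.52% of all genes). The median over members was -0.06 with 19 of 43 above 0 (all genes 50.7%). All 8 fibroblast markers had log2 fold changes below 0 here, with sums of 801 to 903 CPM in Sham_solvent and 504 to 744 CPM in Sham_herb, and 2 of them had an unadjusted p under 0.05. Of the 6 meninges markers 5 were below 0 (median -0.85, 2 at that p), with sums of 263 to 973 against 122 to 192 CPM. Neither marker sum overlapped between the groups. Their part in the collagen values was not tested.

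NPP_herb was also set against Sham_herb, where 0 of 43 members had an unadjusted p under 0.05, against 1.40% of all genes. Col1a1 had 264, 241 and 252 CPM in Sham_herb, all below the 330 to 370 CPM of NPP_herb. Col1a2, Col3a1 and Col6a2 were likewise without overlap, so this held for 4 of 43 members in that direction (9.30%, against 3.18% of all genes) and for 0 in the other (against 4.17%). For Col1a1 the log2 fold change was 0.47 ± 0.38 and for Col3a1 0.45 ± 0.47, with edgeR adjusted p of 1.00 for both. The median over members was 0.11, against 0.00 for all genes, with 31 of 43 above 0 (all genes 49.1%). Red cell markers were also higher in NPP_herb in all 4 genes, with sums of 94.9 to 568 CPM against 26.3 to 51.5 CPM. Meninges markers were above 0 in 5 of 6 (median 0.62, 0 at that p). Their sums of 221 to 379 against 122 to 192 CPM did not overlap. Fibroblast markers were above 0 in 6 of 8 (median 0.18, 0 at that p), with sums of 556 to 780 against 504 to 744 CPM. The part of these markers in the collagen values was not tested.

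The difference of the herb effects between the NPP and the sham state was tested directly. At an unadjusted p under 0.05 there were 0 of 43 members, against 3.40% of all genes. The median over members was 0.05 with 24 of 43 above 0 (all genes 47.7%), and the estimates were 0.06 ± 0.54 for Col1a1 and -0.43 ± 0.28 for Col4a2. Those estimates were 0.75 and -0.31 with replicate 3 of NPP_solvent left out. When replicate 3 of NPP_solvent was left out, Col3a1, Col4a5 and Col4a6 had an unadjusted p under 0.05 (6.98%, against 2.37% of all genes) and the median was 0.28. With all libraries, 4 of 6 meninges markers were higher at that p in this contrast (5 of 6 above 0, median 1.75), and all 8 fibroblast markers were above 0 (median 0.49, 0 at that p). All 4 red cell markers were above 0 (1 at that p). The part of these in the collagen values was not tested.

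The most members with a low p were found between the control groups, Ctrl_solvent and Ctrl. Here 9 of 43 members had an unadjusted p under 0.05 (20.9%), against 13% of all genes. Of these, 7 were lower in Ctrl_solvent (16.3%, against 4.68% of all genes) and 2 were higher (4.65%, against 8.33%). The median over members was -0.18 with 15 of 43 above 0 (all genes 51.1%). Among fibrillar genes 4 of 11 had such a p, and 10 of 11 had a log2 fold change below 0, with a median of -0.46 against 0.01 for all genes. Groups did not overlap for 7 members that were lower (16.3%, against 8.15% of all genes) and for 2 that were higher (4.65%, against 8.45%).

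Col5a3 had 265, 312 and 222 CPM in Ctrl and 149, 183 and 155 CPM in Ctrl_solvent. The highest Ctrl_solvent library lay below the lowest Ctrl library. Its log2 fold change was -0.71 ± 0.21 (edgeR adjusted p = 0.160, DESeq2 adjusted p = 0.0295). Col2a1 had 26.7, 37.9 and 24.2 CPM against 11.5, 17.9 and 10.3 CPM, again without overlap. This gave a log2 fold change of -1.15 ± 0.38 (edgeR adjusted p = 0.214, DESeq2 adjusted p = 0.0376). Col11a1 had 9.50, 10.9 and 15.5 CPM against 5.09, 6.09 and 4.81 CPM, a log2 fold change of -1.17 ± 0.40 (edgeR adjusted p = 0.217). Col2a1 and Col11a1 are chains of one cartilage-type fibril. Col11a2 (-0.87), Col13a1 (-0.70), Col22a1 (-0.86) and Col4a1 (-0.31) were the others on the lower side, with edgeR adjusted p of 0.320 to 0.371.

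Col6a6, an alternative type VI chain, went the other way. It had 3.68, 4.996 and 4.83 CPM in Ctrl and 11.1, 7.66 and 10.5 CPM in Ctrl_solvent, without overlap. The estimate was a log2 fold change of 1.11 ± 0.29 (edgeR adjusted p = 0.135, DESeq2 adjusted p = 0.0130). Col25a1, a transmembrane collagen known from neurons, had 5.34, 2.72 and 6.47 CPM in Ctrl and 8.66, 6.63 and 8.22 CPM in Ctrl_solvent. Its groups did not overlap either, by a small margin. Its log2 fold change was 0.68 ± 0.27 (edgeR adjusted p = 0.296).

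Other differences lay along the same contrast. The 5 macrophage markers summed to 165, 80.0 and 151 CPM in Ctrl_solvent and 38.7 to 60.4 CPM in Ctrl, and 4 of 5 had an unadjusted p under 0.05. Of 7 Schwann cell markers 2 were lower at that p, with sums of 10050 to 12330 against 11210 to 16380 CPM. Fibroblast markers were higher in Ctrl_solvent, with 7 of 8 above 0 (median 0.42, 2 at that p) and sums of 628 to 725 against 302 to 600 CPM, which did not overlap. Of 6 meninges markers 4 were above 0 and 2 were higher at that p, with sums of 166 to 277 against 117 to 354 CPM. Replicates 2 and 3 of Ctrl held at most 1 read of the Y-linked genes Eif2s3y and Kdm5d, while replicate 1 held 3006 and 334 reads and the libraries of the other groups at least 2180 and 214. With those 2 libraries left out, a choice made after seeing the data, Ctrl was 1 library, assumed to vary like the other groups. The estimates were then 1.39 for Col6a6, -0.71 for Col5a3 and -1.01 for Col2a1. A single Ctrl library has no spread of its own, so no p-value is given for them. The part of these differences in the collagen values was not tested.

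Across all 6 groups, Col6a6 had the smallest p among members in the test of any difference (edgeR adjusted p = 0.322, DESeq2 adjusted p = 0.0167). There 2 of 43 members had an unadjusted p under 0.05 (4.65%), Col6a6 and Col25a1, against 10.2% of all genes. Col6a6 group means were 9.74 ± 1.83 CPM in Ctrl_solvent, 6.52 ± 2.54 in NPP_solvent, 6.01 ± 1.94 in NPP_herb, 4.77 ± 0.817 in Sham_herb, 4.504 ± 0.715 in Ctrl and 4.44 ± 1.10 in Sham_solvent (SD, n = 3 each). Neighbours in this order overlapped in their libraries, Ctrl_solvent and NPP_solvent included.

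**Figure D5:**
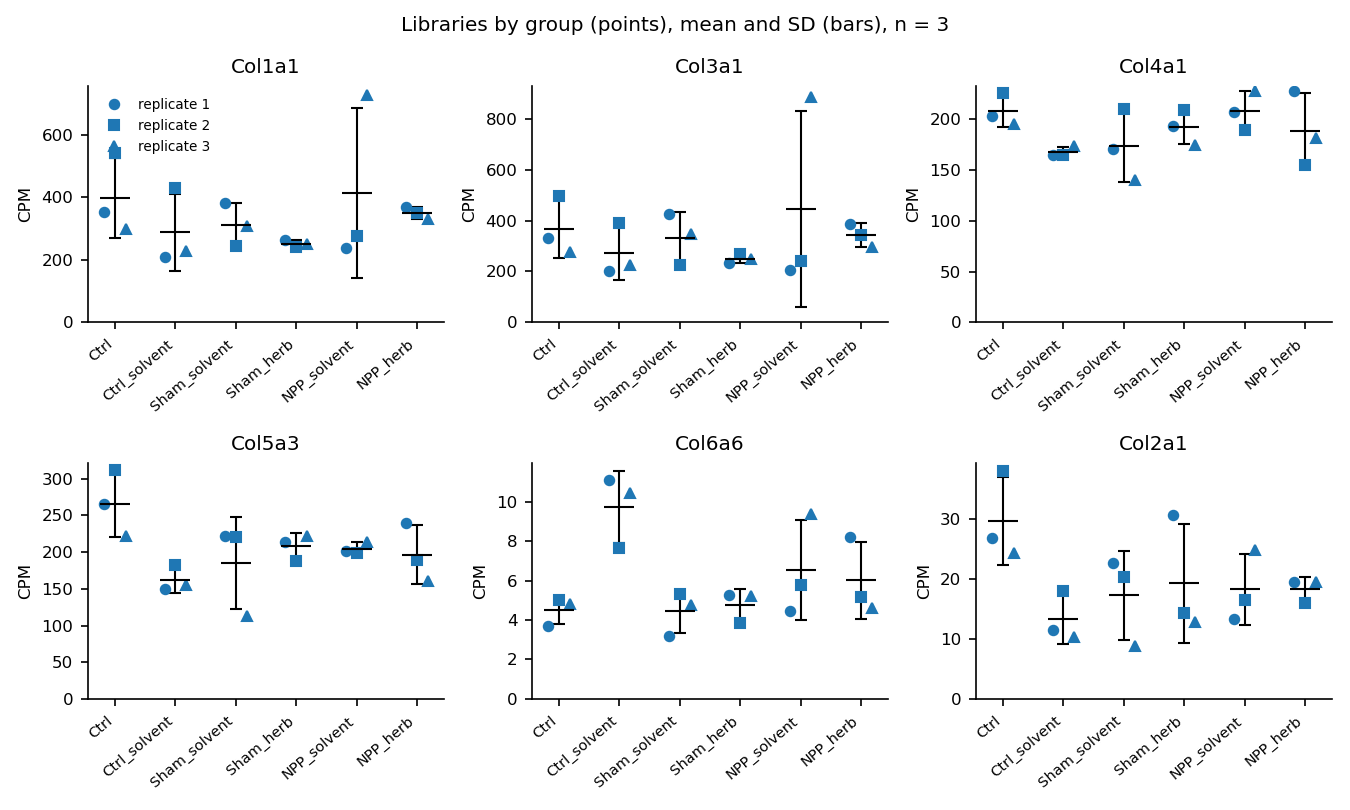
CPM of 6 collagen genes in each library by group; symbols mark the replicate, bars the mean and SD of 3 libraries, and axes start at 0. Col5a3 and Col2a1 are highest in Ctrl, Col6a6 is highest in Ctrl_solvent, and the wide NPP_solvent bars of Col1a1 and Col3a1 come from 1 library at 727 and 887 CPM.

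Sham_solvent was then compared with Ctrl_solvent. Of 43 members, 2 had an unadjusted p under 0.05 (4.65%), against 6.12% of all genes. Col6a6 had 3.21, 5.34 and 4.76 CPM in Sham_solvent, all below Ctrl_solvent. Its log2 fold change was -1.12 ± 0.28 (edgeR adjusted p = 0.459, DESeq2 adjusted p = 0.0573). Col11a1 had 11.3, 6.68 and 10.9 CPM in Sham_solvent, all above Ctrl_solvent, and a log2 fold change of 0.84 ± 0.39 (edgeR adjusted p = 0.815). Groups did not overlap for 2 members on each side (4.65%): Col11a1 and Col28a1 above (3.02% of all genes) and Col6a2 and Col6a6 below (4.12%). All 11 fibrillar genes had log2 fold changes above 0, with a median of 0.28, and the median over all members was 0.13 with 31 of 43 above 0 (all genes 48.4%). The macrophage sums were 65.2 to 81.5 CPM in Sham_solvent, against 80.0 to 165 CPM. Fibroblast markers were above 0 in 6 of 8 (median 0.17, 0 at that p). Their sums of 801 to 903 against 628 to 725 CPM did not overlap. Schwann cell markers were above 0 in 6 of 7 (median 0.14, 0 at that p), with sums of 10800 to 14950 against 10050 to 12330 CPM. Meninges markers were above 0 in 4 of 6 (1 at that p). The part of these marker genes in the collagen values was not tested.

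NPP_solvent against Ctrl_solvent gave 5 of 43 members with an unadjusted p under 0.05 (11.6%), against 5.50% of all genes, and all 5 were higher in NPP_solvent (1.49% of all genes were). Col28a1 had 48.3, 72.2 and 70.0 CPM in Ctrl_solvent and 86.6, 75.7 and 129 CPM in NPP_solvent, without overlap. This corresponds to a log2 fold change of 0.61 ± 0.19 (edgeR adjusted p = 0.618). Col10a1 (0.84 ± 0.32), Col5a1 (0.49 ± 0.21), Col5a2 (0.43 ± 0.19) and Col4a1 (0.31 ± 0.14) followed, with edgeR adjusted p of 0.758 to 0.898. Groups did not overlap for 5 members, all higher (11.6%, against 3.45% of all genes): Col10a1, Col28a1, Col4a1, Col5a3 and Col9a3. They were without overlap on the lower side for 0 members, against 4.11% of all genes. Without replicate 3 of NPP_solvent only 3 members had an unadjusted p under 0.05 (6.98%, against 3.94% of all genes), namely Col6a2 and Col6a6 on the lower and Col10a1 on the higher side, and the median over members moved from 0.21, with 29 of 43 above 0 (all genes 48.7%), to 0.02. The estimates were then 0.35 for Col28a1, 0.78 for Col10a1, 0.25 for Col5a1, 0.17 for Col5a2 and 0.24 for Col4a1. With all libraries, the 5 macrophage markers were all below 0 (median -0.70, 4 at that p), with sums of 56.0 to 80.2 against 80.0 to 165 CPM. The 7 Schwann cell markers were all above 0 (median 0.19, 0 at that p). Their sums of 12490 to 14300 against 10050 to 12330 CPM did not overlap. Meninges markers were below 0 in 5 of 6 (median -0.82, 2 at that p) and fibroblast markers in 5 of 8 (2 at that p). Their part in the collagen values was not tested.

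Collagen chains are modified, trimmed and crosslinked by enzymes, degraded by proteases and bound by receptors and proteoglycans, and these genes were read from lists chosen by function. At an adjusted p, 0 genes of any list passed with edgeR, and the counts below are at an unadjusted p under 0.05. Of all genes, 5.67% had such a p in NPP_solvent against Sham_solvent, 1.87% in NPP_herb against NPP_solvent, 9.89% in Sham_herb against Sham_solvent and 13% in Ctrl_solvent against Ctrl. Of 31 tested enzymes and chaperones, 2 were higher and 1 lower in NPP_solvent against Sham_solvent, with a median log2 fold change of 0.09. Colgalt1, which adds galactose to collagen, had 54.6 ± 3.01 CPM against 44.4 ± 0.819 CPM (edgeR adjusted p = 0.755). Plod3, a lysyl hydroxylase, had 30.1 ± 4.10 against 24.7 ± 3.22 CPM, and Loxl1, a crosslinking oxidase, 4.19 ± 0.383 against 6.69 ± 3.24 CPM. In NPP_herb the values were 24.96 ± 2.18 CPM for Plod3 and 7.23 ± 2.21 CPM for Loxl1, the 2 enzymes with such a p against NPP_solvent.

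In Sham_herb against Sham_solvent, 2 enzymes were higher and 4 lower, with a median of -0.05. Serpinh1, the chaperone of collagen folding, had 135 ± 5.49 CPM against 195 ± 57.6 CPM (edgeR adjusted p = 0.491). Adamts3, a procollagen protease, had 5.83 ± 1.01 against 3.08 ± 0.269 CPM (edgeR adjusted p = 0.491). P4ha2, Adamts2 and Pcolce were the other lower genes and Plod3 the other higher one. In Ctrl_solvent against Ctrl, 3 enzymes were lower: P3h3 (29.6 ± 2.77 against 40.8 ± 7.94 CPM), Plod1 (54.1 ± 6.56 against 66.4 ± 4.65 CPM) and Loxl4 (0.758 ± 0.177 against 2.88 ± 2.51 CPM).

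Of 20 tested genes of collagen breakdown and its inhibitors, 1 had such a p in NPP_solvent against Sham_solvent. This was Mrc2, a receptor that takes up collagen fragments, at 5.75 ± 1.05 against 9.66 ± 2.27 CPM (edgeR adjusted p = 0.755). It was also the only one in Sham_herb against Sham_solvent, at 5.12 ± 1.47 CPM (edgeR adjusted p = 0.491). Both comparisons use the same Sham_solvent libraries. The medians of this list were 0.02 and -0.04. In Ctrl_solvent against Ctrl, Mmp15 was lower (137 ± 18.1 against 177 ± 17.9 CPM), and Mmp3, Mmp16 and Mmp19 were higher.

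Of 13 collagen receptors, 0 had such a p in NPP_solvent against Sham_solvent or NPP_herb against NPP_solvent. In Ctrl_solvent against Ctrl, Lair1 (1.51 ± 0.354 against 0.490 ± 0.199 CPM), Gp6 (4.33 ± 3.56 against 0.683 ± 0.300 CPM) and Ddr2 (26.6 ± 1.25 against 20.95 ± 3.86 CPM) were higher and Adgrg1 was lower. Lair1 is made by immune cells and Gp6 by platelets. Of 19 other basement membrane genes, 1 had such a p in NPP_solvent against Sham_solvent, the laminin chain Lamc1 (129.5 ± 18 against 106 ± 19.7 CPM). Npnt was the only one in NPP_herb against NPP_solvent (9.58 ± 1.22 against 6.38 ± 1.21 CPM). Hspg2, the proteoglycan perlecan, had 142 ± 11.2 CPM in Ctrl_solvent and 189 ± 33.9 CPM in Ctrl.

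The last list holds the small proteoglycans and glycoproteins that bind collagen fibrils. In NPP_solvent against Sham_solvent, 6 of 18 had log2 fold changes above 0, with a median of -0.28, and 4 were lower at an unadjusted p under 0.05. They were Ogn (59.4 ± 7.28 against 103 ± 9.88 CPM), Fmod (8.63 ± 2.50 against 12.2 ± 2.53 CPM), Aspn (3.45 ± 0.789 against 7.72 ± 4.0 CPM) and Omd (6.10 ± 1.67 against 11.7 ± 1.85 CPM), each with an edgeR adjusted p of 0.755. In Sham_herb against Sham_solvent the median was -0.43, and Dcn, the most abundant of them, had 466 ± 101 against 674 ± 75.0 CPM. In NPP_herb against NPP_solvent the median was 0.21 and 0 of 18 had such a p. In Ctrl_solvent against Ctrl the median was 0.34 with 15 of 18 above 0, and 3 were higher and 1 lower at such a p. Dcn is also among the fibroblast markers, so this list and that one are not independent.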

How the data were processed

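Messenger RNA was sequenced in 18 libraries of rat dorsal root ganglion, made with a stranded kit and read from both ends, per the labels' protocols. The tools HISAT2 and DESeq2, and the build mRatBN7.2, come from the submitters' processing notes. No source used here gives the counter or how it treated strand, so overlapping and antisense genes cannot be told apart from their partners. The deposited count table holds raw read counts per gene, not normalized. The deposited FPKM values were scaled by the authors to gene length and library size for 25557 genes. All library columns matched a sample's label.

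From the counts, filterByExpr of edgeR 4.0.16 (R 4.3.3) kept 17043 genes, TMM factors were 0.946 to 1.04, and the quasi-likelihood test used all 18 libraries with 1 coefficient per group (12 residual df). P-values were adjusted by Benjamini-Hochberg across the tested genes. CPM uses the TMM library sizes, and log2 CPM a prior count of 2. Fold changes are second group subtracted from first, on the log2 scale. The fit was tested on simulated data. Replicates within a group correlated at a median r of 0.977, and no pair agreed within sampling noise (smallest chi-square per degree of freedom 12.4). Alternatives were DESeq2 1.42.0, limma 3.58.1 (voom on counts, trend on log2 FPKM with a pseudocount of 0.1 or 1), other scaling, filters, a block, a gene length slope and leaving out each library. In DESeq2, genes with no adjusted p were not counted.

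Genes named in the text were chosen by level within class (up to 4, or 6 for fibrillar and basement membrane genes). Others were chosen by unadjusted p under 0.05 (up to 5 per direction by smallest p), or as members of the 12 pairs. For Ctrl_solvent against Ctrl all 7 lower members are named, past that limit. From the other lists, genes were chosen by unadjusted p under 0.05. Genes named for groups that do not overlap were chosen after their values were seen. The members and lists were chosen with earlier results of these data known. Crtap, Pcolce2, Mmp10, Tnxb and Olig2 were not analysed here.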

Additional observations from a re-analysis of the deposited data

How the results depend on the processing

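Of 534 alternative values of 31 named gene differences, 523 kept their sign, 11 did not and 6 passed an adjusted p of 0.05. Of 172 alternative counts of called members, 4 were above 0. For Ctrl_solvent against Ctrl the count was 3 with DESeq2 (465 genes in all) and 0 to 2 when each library was left out. The 2 came without Ctrl_solvent replicate 2 (734 genes in all, 4.22%) and were Col11a2 (-1.63, adjusted p = 0.00876) and Col6a6 (1.26, adjusted p = 0.0292). For Sham_solvent against Ctrl_solvent it was 0 to 2, the 2 again without Ctrl_solvent replicate 2 (252 genes in all, 1.45%), and for any difference it was 1 with DESeq2 (469 genes in all). The cause was not tested.

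Leaving out each library gave ranges across 0 for NPP_solvent minus Sham_solvent in Col1a1 (-0.28 to 0.69), Col1a2 (-0.19 to 0.34) and Col3a1 (-0.57 to 0.76), and in the median over members (-0.19 to 0.27). For NPP_herb minus NPP_solvent they were Col1a1 -0.52 to 0.44, Col1a2 -0.31 to 0.22, Col3a1 -0.73 to 0.61, Col4a2 -0.30 to 0.042, and the median -0.23 to 0.29. NPP_solvent replicate 3 gave each of these turns. Col4a2 also turned without NPP_herb replicate 2 (0.042, against 0.02 without NPP_solvent replicate 3). The median over members crossed 0 in other comparisons too. It ran from -0.11 to 0.0081 for Sham_herb minus Sham_solvent, whose groups do not hold NPP_solvent replicate 3. For the difference of herb effects it ran from -0.10 to 0.28.

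The replicate numbers did not pair the libraries: same-numbered deviations correlated at a median r of 0.01, with 9 of 45 over 0.1. With the replicate block, 0 members were called in every test with edgeR, and Col6a6 had 1.11 for Ctrl_solvent minus Ctrl (adjusted p = 0.180). For Sham_herb minus Sham_solvent, the replicate block with a gene length slope turned Col4a1 to -0.0909 and Col4a2 to -0.0328, and the slope alone turned Col4a1 to -0.00612.

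Pearson's r of Col11a1 and Col11a2 lost its call on log2(FPKM + 0.1) (0.508), without the 2 farthest libraries (0.489) and within groups (0.235), while rho kept it without the 2 farthest (0.577). Col6a1 with Col6a3 lost it without the 2 farthest (0.490), and Col8a1 with Col8a2 turned to -0.185.

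Counts at an unadjusted p under 0.05 moved when each library was left out: 0 to 5 for NPP_solvent minus Sham_solvent, 0 to 4 for NPP_herb minus NPP_solvent, 0 to 3 for Sham_herb minus Sham_solvent, 0 to 1 for NPP_herb minus Sham_herb, 1 to 6 for Sham_solvent minus Ctrl_solvent, 4 to 13 for Ctrl_solvent minus Ctrl, 2 to 10 for NPP_solvent minus Ctrl_solvent, 0 to 3 for the difference of herb effects and 1 to 7 for any difference. Under the other alternatives they ran over 0 to 2, 0 to 3, 0 to 2, 0 to 4, 1 to 3, 4 to 11, 2 to 7, 0 to 1 and 1 to 6 in that order. The share of all genes at that p moved too. Without NPP_solvent replicate 3 it went from 5.67% to 2.46% for NPP_solvent minus Sham_solvent. For NPP_herb minus NPP_solvent it went from 1.87% to 3.32%. That share is not given for every setting, so these ranges do not set collagen genes apart from other genes. Some genes under 1 FPKM rest on few reads, such as Col4a4 with 2 to 24 per library, and differences in them may not be detectable at this depth. Others under 1 FPKM had more reads, such as Col6a6 with 79 to 344 and Col24a1 with 94 to 670. Counting error is the only error that read numbers describe.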
